A study of Danio rerio with 4 samples.

Results

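The genes described here are 10 transcription factor genes known as neural crest specifiers: sox10, sox9a, sox9b, tfap2a, tfap2c, snai1b, snai2, twist1a, twist1b and pax3a. They were chosen by name, as the rows of the deposited matrix that carry these symbols, and all 10 were found among the 20390 listed genes. RNA came from whole zebrafish embryos at the 6-somite stage, in 2 libraries from uninjected embryos and 2 from embryos injected with Cre. Embryos of both groups carry the bns298 transgene: the hsp70l promoter, which responds to heat, then a stop cassette flanked by loxP sites, then npas4l with a linked mCherry. The bHLH-PAS factor Npas4l is required to form blood and endothelium, while the recombinase Cre cuts out DNA lying between a pair of loxP sites. Per the labels, Cre was given at the 1-cell stage, embryos were kept at 28 °C, and a heat shock of 37 °C lasted 1 h. The labels give several starting times for the heat shock without saying which applies to these libraries, and do not say how many embryos or clutches each library pools. No library comes from Cre-injected embryos without the transgene, so in each difference given here the effects of npas4l, of Cre and of injection cannot be told apart.

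The neural crest is a population of cells that forms at the edge of the neural plate, leaves the dorsal neural tube and gives rise to pigment cells, peripheral neurons and glia, and much of the head skeleton. Signals of the Wnt, BMP, FGF and Notch families first set up the neural plate border, whose factors include Msx, Zic and Pax3/7 proteins. These act ahead of the specifiers, namely the TFAP2, SoxE, Snail, Twist and FoxD3 factors, which give the cells their crest identity and their ability to migrate. The gene pax3a, counted here among the 10 specifier genes, also belongs to that border group. At early somite stages the zebrafish crest is still largely premigratory. None of the 10 genes is transcribed in the crest alone. The TFAP2 genes are also active in the epidermis, the SoxE genes in the otic placode and other tissues, the Snail and Twist genes in mesoderm, and pax3a in the dorsal neural tube and the somites. In RNA from whole embryos, fewer cells of a type and less RNA per cell cannot be told apart.

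Values are used as the authors deposited them and are read here as normalised read counts. Where reads of a gene are given in this text, these values are meant. They are whole numbers that summed to between 8933474 and 9861419 per library. Genes of the mitochondrial genome took 12.6% and 13% of the total in the first library of the Cre-injected and uninjected groups and 16.9% and 17.4% in the second. Levels are compared only within a gene, because transcript lengths are not in the data used here. With each gene's reads split in proportion to library totals, the median chi-square per gene was 1.29 (uninjected pair) and 2.46 (Cre-injected pair). Sampling noise alone would give 0.455. The totals differ within each pair although the values are read as already normalised, so these medians mix that scaling with the spread between replicates. Transcripts of npas4l (listed as CABZ01080135.1) stood at 370 and 279 without Cre and at 710 and 808 with it, in the direction that the labels imply.

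The specifier genes sox10, tfap2a and snai1b were lower in Cre-injected embryos at an adjusted p under 0.05, and none was higher. The level of sox10 fell by 29.1%, that of tfap2a fell by 27.1% and that of snai1b fell by 25.2%, and for each of the 3 both Cre-injected libraries lay below both uninjected ones. The other 7 did not pass the test, among them pax3a, the gene with the most positive fold change. By limma on log2(value + 1), all 10 were tested, 3 were lower and 0 higher, and 7 passed in neither direction. Of all 16754 genes tested, 6.19% were lower and 6.35% higher under the same rule. The values of 7 specifier genes were lower in both Cre-injected libraries than in both uninjected ones and those of 1 were higher, where 28.8% and 28% of all tested genes separated that way. The median log2 fold change of the 10 was -0.35, and that of all tested genes was 0.00. The plot of values by library shows each gene.

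**Figure D1:**
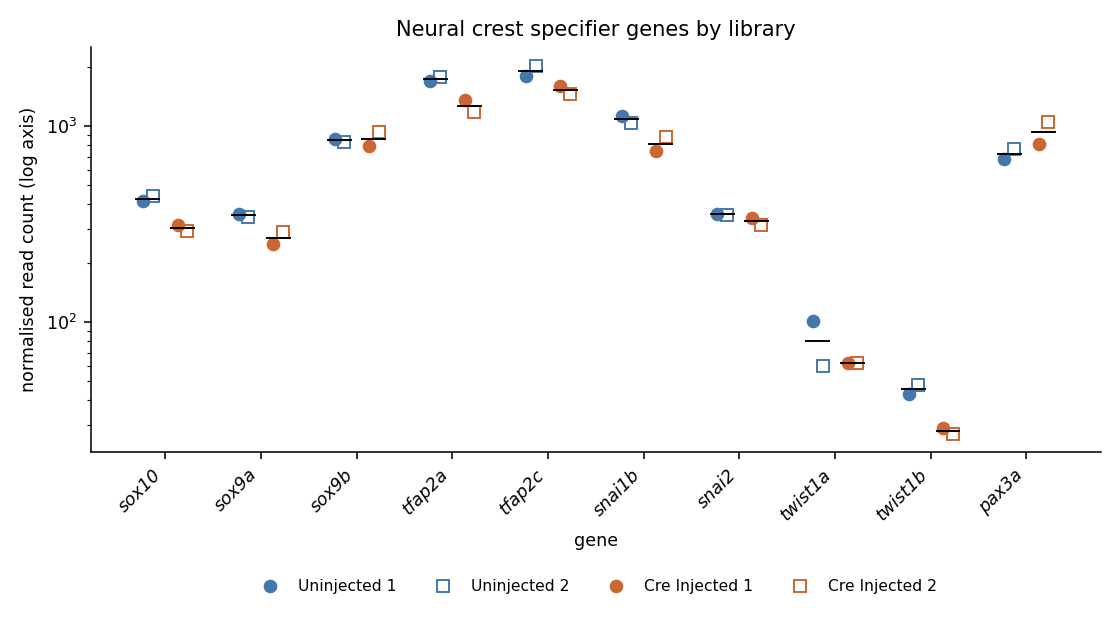
Normalised read count (log axis) of the 10 specifier genes in the 4 libraries, with filled circles for replicate 1, open squares for replicate 2 and a bar at each group mean. Both Cre-injected libraries lie below both uninjected ones for 7 genes, including sox10 at 315 and 291 against 413 and 442, and above them for pax3a.

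The SoxE genes encode HMG-box factors. Sox10 keeps crest cells multipotent and is needed for pigment cells, peripheral glia and enteric neurons. The gene (chromosome 3, 1492174 to 1501255, GRCz11, plus strand) had 413 and 442 reads without Cre and 315 and 291 with it. Both Cre-injected libraries were thus below both uninjected ones, and the step between the nearest libraries of the groups, 0.39 on the log2 scale, was larger than the 0.10 and 0.11 between replicates. From 427.5 ± 20.5 to 303 ± 17.0 (SD, n = 2), its level fell by 29.1%, a log2 fold change of -0.50 ± 0.14 (SE; 95% interval -0.80 to -0.19; adjusted p = 0.0389).

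Sox9a and Sox9b act in the crest and direct cartilage formation, and the 2 genes arose by duplication of 1 ancestral sox9. Values of sox9a (chromosome 12) were 357 and 344 without Cre and 252 and 287 with it. These groups did not overlap, but the log2 fold change of -0.38 ± 0.15 (SE; 95% interval -0.70 to -0.06) did not pass (adjusted p = 0.116). Without Cre-injected replicate 2 the fold change of sox9a was -0.47, in a fit whose spread comes from the uninjected pair alone. Its duplicate sox9b (chromosome 3) stood at 863 and 831 in uninjected embryos and at 792 and 931 in Cre-injected ones. The 2 Cre-injected values of sox9b lay on either side of the uninjected ones, with a log2 fold change of 0.02 ± 0.12 (SE; 95% interval -0.25 to 0.29; adjusted p = 0.937) whose sign turned under one scaling (-0.003 with equal totals without mitochondrial genes) and without uninjected replicate 2 (-0.01) or Cre-injected replicate 2 (-0.10). Within a library, the ratio of sox9a reads to sox9b reads was 0.414 in each uninjected library and 0.318 and 0.308 in the Cre-injected ones. For sox10 over sox9b it was 0.479 and 0.532 against 0.398 and 0.313. For sox10 over sox9a it was 1.16 and 1.28 against 1.25 and 1.01. The groups overlapped for sox10 over sox9a and did not for the 2 ratios over sox9b. For 2 libraries against 2 an exact 2-sided permutation test cannot go below p = 0.333, so these ratios are given as values.

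Tfap2a and Tfap2c are AP-2 factors that act redundantly at the neural plate border and in crest induction, and both are also active in the non-neural ectoderm. For tfap2a (chromosome 24, 8721676 to 8732519, minus strand) the libraries read 1702 and 1778 without Cre and 1358 and 1180 with Cre. Its mean fell by 27.1%, going from 1740 ± 53.7 down to 1269 ± 126 (SD, n = 2). The log2 fold change was -0.46 ± 0.12 (SE; 95% interval -0.71 to -0.21), with the smallest adjusted p among the 10 genes, 0.0232. Its partner tfap2c (chromosome 6) had 1806 and 2035 against 1604 and 1462. The groups of tfap2c did not overlap either, and its log2 fold change of -0.32 ± 0.11 (SE; 95% interval -0.57 to -0.07) had an adjusted p = 0.0869. With either Cre-injected library left out the fold change of tfap2c was -0.39 and -0.26, in fits whose spread comes from the uninjected pair alone. The 2 intervals overlap over most of their length, and the reads of tfap2a per read of tfap2c were 0.942 and 0.874 without Cre against 0.847 and 0.807 with it.

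Snail proteins are zinc-finger repressors that let crest and mesoderm cells leave an epithelium. The level of snai1b (chromosome 23, 2502181 to 2513300, minus strand) was 1132 and 1044 without Cre but 747 and 881 with it. It fell by 25.2%, with a log2 fold change of -0.42 ± 0.13 (SE; 95% interval -0.69 to -0.15; adjusted p = 0.046), the call nearest to the threshold among the 3. The step between the groups, 0.24 on the log2 scale, was about as large as the 0.24 between the 2 Cre-injected replicates. For snai2 (chromosome 24) the values were 358 and 353 against 342 and 312. The group ranges of snai2 came within 0.05 of each other on the log2 scale, and the fold change of -0.12 ± 0.14 (SE; 95% interval -0.43 to 0.19; adjusted p = 0.615) did not pass.

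Twist1a and Twist1b are bHLH factors of the cranial crest and the mesoderm, needed for head skeleton precursors. They had the fewest reads of the 10 genes, which limits what these libraries can show. Reads for twist1b (chromosome 16) were 43 and 48 without Cre and 29 and 27 with it. The groups of twist1b stood apart, and the estimate of -0.68 ± 0.32 on the log2 scale was the most negative of the 10, but its 95% interval ran from -1.38 to 0.02 (adjusted p = 0.187). The uninjected libraries of twist1a (chromosome 19) read 101 and 60, and both Cre-injected ones read 62 (adjusted p = 0.49). One uninjected library alone was high, and without it (uninjected replicate 1) the log2 fold change of twist1a turned from -0.32 to 0.05.

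Pax3a, a paired-box factor of the neural plate border, dorsal neural tube and dermomyotome, went the other way in its estimate. Its gene (chromosome 2, 47370323 to 47431205, minus strand) gave 684 and 766 reads without Cre and 812 and 1047 with it. The 2 Cre-injected replicates differed by 0.37 on the log2 scale and the groups were separated by 0.08. The log2 fold change of 0.35 ± 0.14 (SE; 95% interval 0.04 to 0.66) did not pass (adjusted p = 0.129). It was 0.53 when Cre-injected replicate 1, the lower of the pair, was left out, in a fit whose spread comes from the uninjected pair alone.

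The 3 calls depended on which libraries set the spread. Without uninjected replicate 1 the fold changes of sox10, tfap2a and snai1b were -0.54, -0.49 and -0.36, without uninjected replicate 2 they were -0.45, -0.43 and -0.48, and none passed; in these fits the spread comes from the Cre-injected pair alone, and only 218 and 210 genes were lower in all. They passed when either Cre-injected library was left out, and then 4 or 5 of the 10 genes were lower, among 1871 and 1738 lower genes in all against 1037 with the 4 libraries. Under library-size scaling tfap2a alone passed (adjusted p = 0.0425), while sox10 and snai1b had adjusted p = 0.057 and 0.0565, and snai1b also missed without robust shrinkage (adjusted p = 0.0662).

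**Figure D2:**
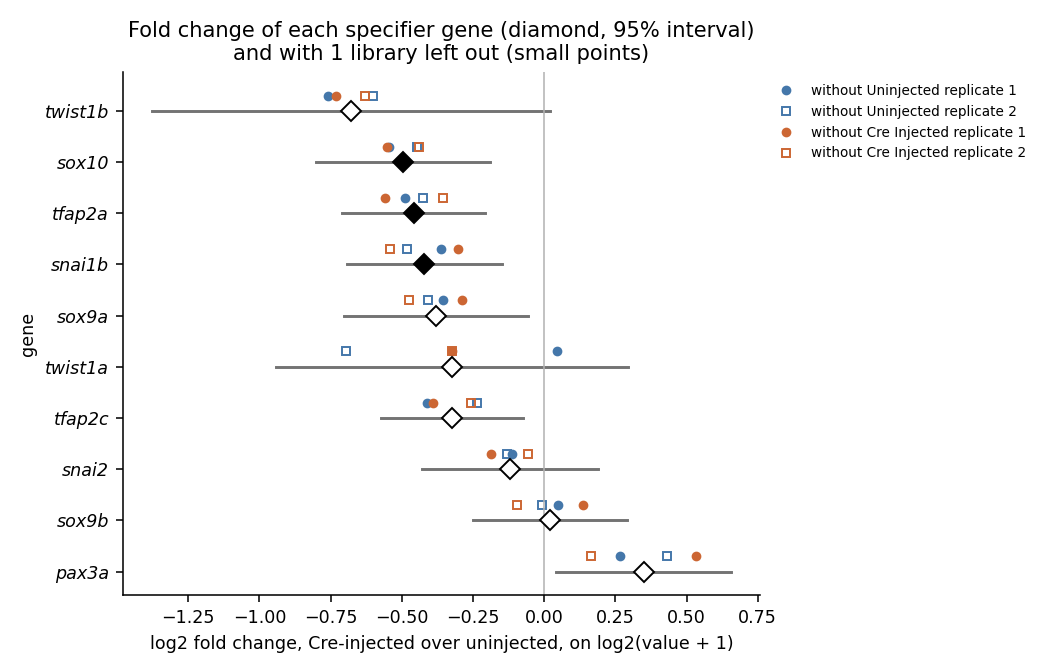
Log2 fold change of each specifier gene (x axis, Cre-injected over uninjected on log2(value + 1)) as a diamond with its 95% interval, filled where the adjusted p was under 0.05, and the 4 estimates with 1 library left out as small points. The points of sox10, tfap2a and snai1b stay between -0.30 and -0.56, whereas those of twist1a reach 0.05 and those of sox9b lie on either side of 0.

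The 2 Cre-injected libraries differed in a direction that varied from gene to gene. Cre-injected replicate 2 had the lower value for sox10, tfap2a, tfap2c, snai2 and twist1b, and the higher value for sox9a, sox9b, snai1b and pax3a; twist1a was equal in both. Over the 4 libraries, the profile nearest to that of sox10 among the other 9 genes was that of tfap2a, at a Euclidean distance of 0.08 between centred log2 values, and the farthest was pax3a at 0.91. Another close pair was sox9a and snai1b, at 0.07. Of 11672 other tested genes with a mean of at least 50, 29 were as near to sox10 as tfap2a, itself included, and these distances rest on only 4 libraries. The 5 nearest were nipal3, slc35c2, gatad2b, zgc:114130 and aldh4a1, at distances of 0.03, 0.03, 0.03, 0.04 and 0.04. For nipal3 the uninjected libraries read 146 and 157 and the Cre-injected ones 112 and 101.

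Paralogs of the 10 genes gave further members of the same families. Beside the counts for these and the later lists, 6.19% of all tested genes were lower and 6.35% higher. Of 12 paralogs on the list, 10 were in the matrix and 7 reached the filter of at least 10 reads in at least 2 libraries; 2 were lower, 1 was higher and 4 passed in neither direction. The AP-2 gene tfap2b, which in mouse is needed for sympathetic neurons, stood at 109 and 94 without Cre and at 45 and 32 with it, a log2 fold change of -1.39 ± 0.27 (SE; adjusted p = 0.0066). For pax7a, whose product is needed for yellow pigment cells and muscle precursors, the values were 37 and 34 against 8 and 10 (-1.87 ± 0.43, adjusted p = 0.0151). The changes of these 2 genes were thus larger on the log2 scale than those of any of the 10 specifier genes that passed, on fewer reads.

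In the Snail family, snai1a, the paralog active in paraxial mesoderm, rose from 688 and 687 to 913 and 983 (log2 fold change 0.46 ± 0.12 (SE), adjusted p = 0.0245). The reads of snai1b per read of snai1a were 1.65 and 1.52 without Cre and 0.818 and 0.896 with it, a pair compared after its values were seen. The calls of tfap2b, pax7a and snai1a were lost without either uninjected library and held without either Cre-injected one; that of snai1a was also lost under library-size scaling (adjusted p = 0.0505). Values of pax3b were 62 and 69 against 66 and 75, and those of pax7b 83 and 79 against 78 and 86, with overlapping groups. Neither passed, at 0.10 (adjusted p = 0.819) and 0.02 (adjusted p = 0.972) on the log2 scale. The sign for pax7b turned to -0.01 with equal totals without mitochondrial genes. Among the other Twist genes, twist2 stood at 46 and 57 against 95 and 60 (adjusted p = 0.237), and twist3 at 14 and 13 against 16 and 6 (adjusted p = 0.692). The SoxE genes sox8a and sox8b and the AP-2 gene tfap2e had no value over 8 and were not tested.

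**Figure D3:**
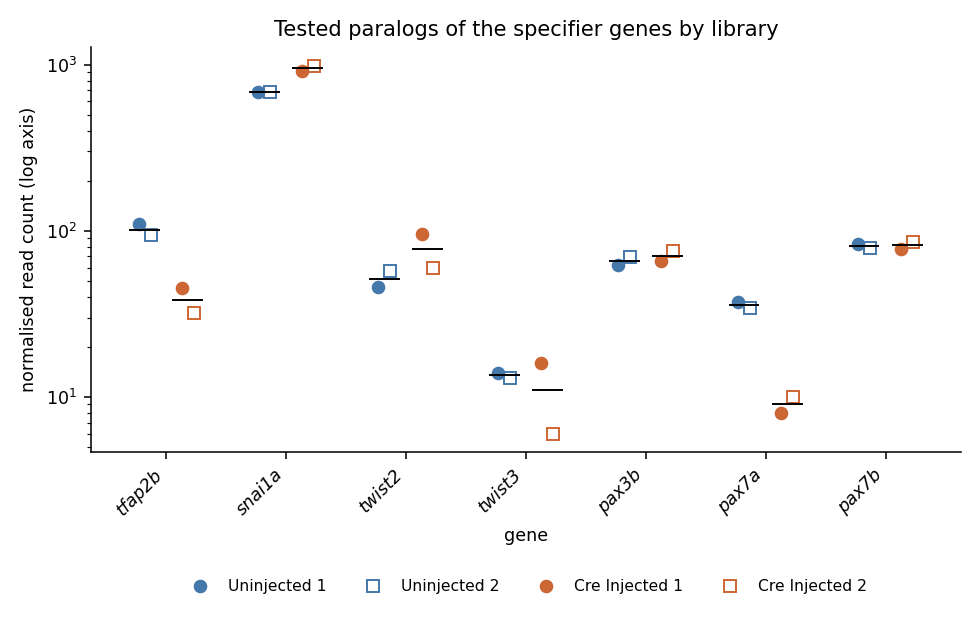
Normalised read count (log axis) of the 7 tested paralogs, drawn as in the plot of the 10 genes by library. tfap2b and pax7a are lower in both Cre-injected libraries, at 45 and 32 and at 8 and 10, while snai1a is higher, at 913 and 983.

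Among other genes of the crest pathway, some passed in each direction, as did 6.19% (lower) and 6.35% (higher) of all tested genes. Of 12 further specifier genes 2 were lower and 1 higher: olig3 (listed as FQ311955.1), a bHLH gene of the dorsal neural tube, from 211 in each uninjected library to 100 and 129 (log2 fold change -0.89, adjusted p = 0.011), ets1 (listed as CABZ01069595.1), an ETS factor gene of crest and endothelium, from 75 and 87 to 44 and 19 (-1.45, adjusted p = 0.025), and prdm1a, needed for crest and sensory neurons at the border, from 1020 and 865 up to 1302 and 1305 (0.47, adjusted p = 0.0246). Values of sox5 were 807 and 905 against 709 and 618 (adjusted p = 0.082). A gene named after its values were seen is foxd3, a specifier whose product acts beside Sox10 and Tfap2a in the early crest. It stood at 242 and 232 without Cre and at 238 and 288 with it, with overlapping groups (log2 fold change 0.14 ± 0.16 (SE), 95% interval -0.21 to 0.50, adjusted p = 0.604). Leaving out either uninjected library ended the calls of olig3, ets1 and prdm1a, as did library-size scaling for prdm1a (adjusted p = 0.0543) and non-robust shrinkage for ets1 (adjusted p = 0.0503). The Cre-injected libraries of ets1 differed enough that its log2 fold change was -2.03 with replicate 1 left out and -0.86 with replicate 2 left out.

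Ahead of the specifiers, 14 neural plate border genes were tested, with 2 lower and 1 higher. The zinc-finger gene zic1 went from 876 and 961 to 644 and 566 (log2 fold change -0.60 ± 0.13 (SE), adjusted p = 0.00927). The homeobox gene dlx4b, which is also on the placode list, fell from 54 and 69 to 31 and 22 (-1.19, adjusted p = 0.0339), and irx1b rose from 817 and 846 to 1107 and 1070 (0.39, adjusted p = 0.0436). For zic2b the values were 2079 and 2036 against 2267 and 2505 (adjusted p = 0.223). Of 15 genes for inducing signals and their receptors or inhibitors, 1 passed: the receptor gene notch1a rose from 1499 and 1476 to 2825 and 2291 (0.77 ± 0.12 (SE), adjusted p = 0.00189). The related notch3 read 2762 and 3211 against 4549 and 3415 (adjusted p = 0.0798), the ligand gene wnt10b 65 and 70 against 47 and 34 (adjusted p = 0.115) and bmp7a 284 and 276 against 344 and 373 (adjusted p = 0.13). The calls of zic1, dlx4b, irx1b and notch1a ended without either uninjected library, and that of dlx4b ended also without Cre-injected replicate 2 (-0.96). The call of irx1b ended as well under library-size scaling (adjusted p = 0.101), equal totals without mitochondrial genes (adjusted p = 0.0685) and non-robust shrinkage (adjusted p = 0.0552).

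Downstream of the specifiers, 11 of 13 listed genes of migrating and skeleton-forming crest in the matrix were tested, with 1 lower and 3 higher. Of these 11, 5 were lower in both Cre-injected libraries and 4 higher, where 28.8% and 28% of all tested genes separated that way. The endothelin receptor gene ednrab, which is active in the crest of the pharyngeal arches, stood at 174 and 176 without Cre and at 33 and 60 with it. Its log2 fold change of -1.95 ± 0.28 (SE; adjusted p = 0.00101) kept its call whichever library was left out, from -1.53 to -2.37. The second endothelin receptor gene of this type, ednraa, rose from 223 and 195 to 273 and 419 (0.70, adjusted p = 0.0404). The 2 receptor genes thus passed in opposite directions, but ednraa was not called without either uninjected library or without Cre-injected replicate 2 (0.39), nor without robust shrinkage (adjusted p = 0.0699). The cadherin genes cdh6, from 1313 and 1315 to 1713 and 2068 (0.52, adjusted p = 0.0155), and cdh11, from 837 and 793 to 1076 and 1056 (0.39, adjusted p = 0.0451), rose too. Both cadherin calls ended without either uninjected library, and that of cdh11 ended under library-size scaling (adjusted p = 0.105), equal totals without mitochondrial genes (adjusted p = 0.068) and non-robust shrinkage (adjusted p = 0.0567). Values of hand2 were 336 and 348 against 256 and 245 (adjusted p = 0.0655). For rxrga (listed as CU855759.1) they were 81 and 87 against 55 and 53 (adjusted p = 0.115). For nrp2a they were 252 and 270 against 225 and 195, and for tbx2b 450 and 445 against 421 and 378. In the other direction, nrp2b had 3031 and 2949 against 3712 and 3123. None of hand2, rxrga, nrp2a, tbx2b and nrp2b passed, and they were named after their values were seen.

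Pigment cell and peripheral glia genes had few reads at this stage. Of 10 in the matrix 5 were tested, and mitfa, ltk, tyr, pmela and gch2 did not exceed 10 in any library. The neuregulin receptor gene erbb3b, needed for glia and pigment precursors that migrate along nerves, fell from 46 and 54 to 15 and 16 (log2 fold change -1.62 ± 0.36 (SE), adjusted p = 0.0117; not called without either uninjected library). The melanin enzyme gene dct had 13 and 11 against 2 and 5 (adjusted p = 0.168). For the receptor genes kita and ret the values were 65 and 75 against 100 and 100 (adjusted p = 0.16) and 109 and 104 against 97 and 55 (adjusted p = 0.221).

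**Figure D4:**
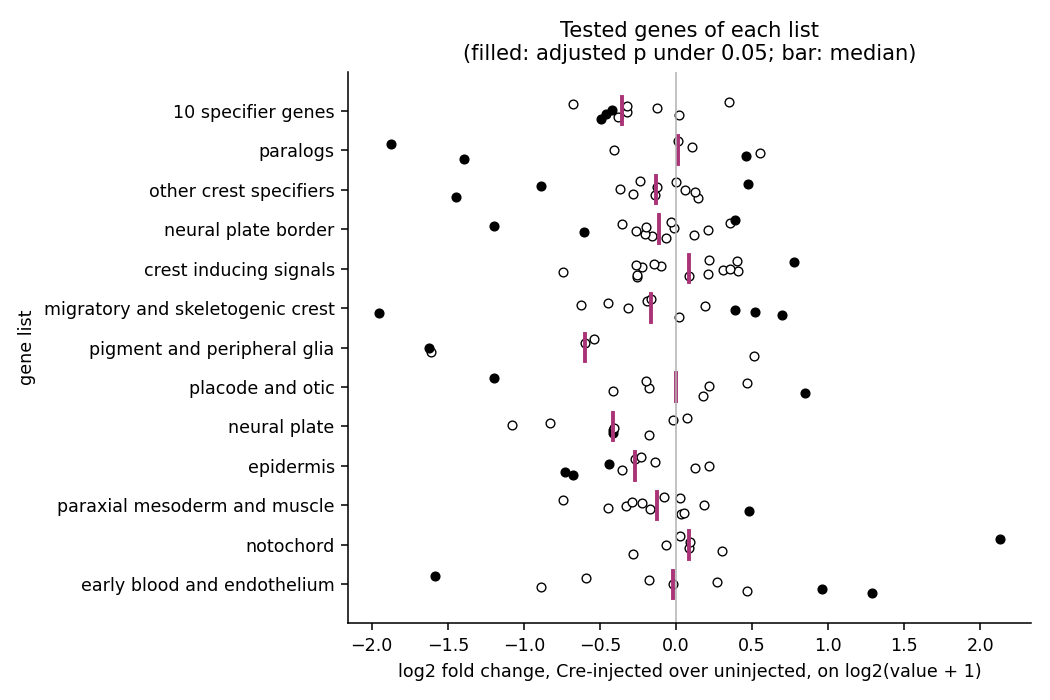
Log2 fold change (x axis, Cre-injected over uninjected on log2(value + 1)) of the tested genes of each list, filled where the adjusted p was under 0.05, with a bar at each list's median. The 10 specifier genes have a median of -0.35 and 3 filled points, all on the lower side, and the neural plate and epidermis lists have medians of -0.41 and -0.27. The pigment and peripheral glia list, with 5 tested genes, has the most negative median, -0.60. Migratory and skeletogenic crest has -0.17, while paralogs, inducing signals and notochord have 0.02, 0.09 and 0.08.

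Some genes of other tissues that transcribe the 10 factors also passed, where 6.19% of all tested genes were lower and 6.35% higher. Of 9 epidermis markers 3 were lower and 0 higher: the keratin gene krt4 went from 104183 and 101126 to 57982 and 66332 (log2 fold change -0.73, adjusted p = 0.00204), tp63, which encodes the master regulator of basal epidermis, from 900 and 996 to 584 and 598 (-0.68, adjusted p = 0.00392), and epcam from 2383 and 2355 to 1539 and 1974 (-0.44, adjusted p = 0.0417). Values of krt5 were 57433 and 54580 against 37749 and 50773 (adjusted p = 0.115). Those of grhl3 were 597 and 649 against 519 and 513 (adjusted p = 0.184). Those of cdh1 were 2925 and 2999 against 2360 and 2695 (adjusted p = 0.191). The genes grhl3 and cdh1 were named after their values were seen. Of the 9 markers, 6 were lower in both Cre-injected libraries and 0 higher, where 28.8% and 28% of all tested genes separated that way. The summed level of the 9 markers ran from 204689 to 217051 without Cre and from 146855 to 178166 with it, and none was at 0. Most of that difference is krt4. Other abundant keratin genes overlapped between the groups, with krt8 at 24826 and 22086 against 22990 and 28336 (adjusted p = 0.553) and krt18a.1 (listed as krt18) at 22352 and 18748 against 22125 and 25573 (adjusted p = 0.272), as did the claudin gene cldne at 1452 and 1150 against 1007 and 1372 (adjusted p = 0.611); these 3 were named after their values were seen. Leaving out a Cre-injected library moved the log2 fold change of krt8 to 0.28 (without replicate 1) and that of cldne to -0.36 (without replicate 2). In those fits the spread comes from the uninjected pair alone. The part of epidermal RNA in the lower tfap2a values was not tested.

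Among 8 neural plate markers, 2 were lower and 0 higher, namely the SoxB1 genes sox19a, from 1831 and 1802 to 1337 and 1388 (log2 fold change -0.41, adjusted p = 0.0263), and sox3, from 1020 and 1004 to 772 and 746 (-0.41, adjusted p = 0.0353). For sox1a and sox1b the values were 55 and 58 against 40 and 17 (adjusted p = 0.0941) and 79 and 91 against 59 and 38 (adjusted p = 0.0771). Groups overlapped for otx2b, at 229 and 221 against 258 and 191 (adjusted p = 0.958), and egr2b, at 316 and 336 against 356 and 331 (adjusted p = 0.772). Neither sox2 (684 and 712 against 643 and 594, adjusted p = 0.384) nor sox19b (309 and 336 against 229 and 256, adjusted p = 0.102) passed. otx2b, egr2b, sox2 and sox19b were named after their values were seen. Of the 8 markers, 6 were lower in both Cre-injected libraries and 0 higher, where 28.8% and 28% of all tested genes separated that way. The list summed to 4523 and 4560 without Cre and to 3694 and 3561 with it, with no marker at 0. The part of neural plate RNA in the values of the specifier genes was not tested. The calls of tp63, krt4, epcam, sox19a and sox3 ended when either uninjected library was left out, that of sox3 under library-size scaling (adjusted p = 0.063) and that of epcam without robust shrinkage (adjusted p = 0.0693). Without Cre-injected replicate 1, epcam was at -0.26.

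In the placode and otic list, where sox10, sox9a and sox9b are also active, 1 of 8 genes was higher and 1 lower. The paired-box gene pax8 of the otic placode and pronephros rose from 92 and 93 to 169 and 166 (log2 fold change 0.85, adjusted p = 0.0135). Values of eya1 were 645 and 627 against 502 and 453 (adjusted p = 0.0551) and those of foxi1 274 and 234 against 345 and 355 (adjusted p = 0.0657). The summed level of the 8 genes overlapped between the groups, at 2897 and 2989 without Cre and 2986 and 3023 with it. Paraxial mesoderm and muscle genes, 12 in all, included 1 that passed: msgn1, a presomitic mesoderm factor gene, rose from 931 and 997 to 1462 and 1240 (0.48, adjusted p = 0.0234). The somite gene tcf15 had 310 and 288 against 131 and 243 (adjusted p = 0.0653), and the myogenic genes myod1 and myf5 had 446 and 519 against 401 and 309 and 847 and 758 against 639 in both (adjusted p = 0.0875 and 0.106). Their list summed to 6390 and 6534 without Cre and to 6070 and 6590 with it, with no marker at 0. Without either uninjected library neither pax8 nor msgn1 passed, and msgn1 did not pass under library-size scaling (adjusted p = 0.0549).

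The lineage that npas4l acts in was represented by 9 genes, of which 2 were higher and 1 lower. Of these 9, 4 were lower in both Cre-injected libraries and 3 higher, where 28.8% and 28% of all tested genes separated that way. Their median log2 fold change was -0.02. The ETS factor gene etv2 rose from 236 and 144 to 416 and 490 (log2 fold change 1.29, adjusted p = 0.00238) and lmo2 from 162 and 219 to 341 and 396 (0.96, adjusted p = 0.00498), while the myeloid factor gene spi1b fell from 55 and 108 to 33 and 19 (-1.58, adjusted p = 0.0193). For tal1 the values were 263 and 269 against 342 and 397 (adjusted p = 0.0603). In gata1a they were 68 and 52 against 28 and 36 (adjusted p = 0.0846). In cdh5 they were 118 and 144 against 70 and 106 (adjusted p = 0.134). Reads of kdrl were 205 and 194 against 169 and 184 (adjusted p = 0.532). Groups overlapped for gata2a and fli1b. The genes gata1a, cdh5, kdrl, gata2a and fli1b were named after their values were seen. The calls of lmo2 and spi1b ended without uninjected replicate 1 (0.74) and without uninjected replicate 2 (-1.10) respectively. No specifier gene had a log2 fold change as large as that of etv2 or lmo2, in either direction.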

How the data were processed

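Stranded libraries were made from 10 ng of total RNA and sequenced as single reads of 75 bases, per the labels. The authors deposited 1 table with a score per gene and library. Among the low values searched, single whole numbers were skipped in the Cre-injected columns (3 and 2) and overfilled in the uninjected ones (3 and 4). The values are therefore read here as counts divided by a size factor and rounded. The submitters' processing notes name, with no roles, the builds GRCz11 and danRer11 and the tools DESeq2 1.14.1, featureCounts 1.6.0 and STAR 2.6.0c. The strand setting of the counting is not known here. No listed gene overlaps any of the 10 genes.

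Groups came from the sample titles. The test was limma 3.58.1 (R 4.3.3) applied to log2(value + 1), 2-sided, with trended and robust shrinkage. It took the 16754 genes that reached 10 in 2 or more libraries, and p-values were adjusted over all of them (Benjamini-Hochberg, threshold 0.05). Fold changes of low genes are understated on this scale. The spread between these libraries may be technical, since no label ties them to separate clutches. The fit was tried on simulated data, where 76 of 100 genes changed 2-fold were called and 100 of 100 changed 4-fold. Among 16161 unchanged genes 11 were called. Changes as small as those of the specifier genes were not simulated. The simulated spread was set by a formula and not taken from these replicates. Members and lists were chosen with earlier results of these data known. The text names all members and tested paralogs, up to 4 genes of each other list with the smallest p, npas4l, and the 5 profiles nearest to sox10. Some others are marked as named after their values were seen. List genes absent by symbol were matched by identifier or older symbol in a table of gene names. Alternatives covered scaling, pseudocount, filter, shrinkage, a replicate block and each library left out. Figures were drawn with matplotlib 3.10.9.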

Additional observations from a re-analysis of the deposited data

How the results depend on the processing

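Over all tested genes, leaving out 1 library moved the counts from 228 to 2064 higher and from 210 to 1871 lower, against 1064 and 1037 with all 4. A fit with 1 uninjected library takes its spread from the Cre-injected pair and a fit with 1 Cre-injected library takes it from the uninjected pair. Of the 10 specifier genes, 0 to 5 were lower and 0 to 1 higher in those fits, against 3 and 0. Library-size scaling left 1 lower; the cause was not tested. With the replicate block, which the labels do not show to pair libraries (correlation of deviations -0.03), 2 specifier genes were lower, with snai1b at adjusted p = 0.0506, and the calls of irx1b and cdh11 ended (adjusted p = 0.0611 and 0.0617). With a library left out, sox9b ranged from -0.10 to 0.14 on the log2 scale, twist1a from -0.695 to 0.0465, twist3 from -1.05 to 0.23, pax7b from -0.0533 to 0.0858, cldne from -0.3595 to 0.0864, krt8 from -0.0265 to 0.2751 and col2a1a from -0.13 to 0.32. With equal totals without mitochondrial genes, sox9b was at -0.0033 and pax7b at -0.0068. In the other fits no named gene changed sign, leaving aside some whose fits were not compared. Those were otx2b, egr2b, sox2, sox19b, grhl3, cdh1, hand2, rxrga, nrp2a, nrp2b, tbx2b, gata1a, gata2a, fli1b, cdh5 and kdrl. Fits were also not compared for nipal3, slc35c2, gatad2b, zgc:114130 and aldh4a1, or for the named genes that were not tested. Without a Cre-injected library 4 calls were gained among the specifier genes, those of pax3a and tfap2c without replicate 1 and those of sox9a and tfap2c without replicate 2. Of the 10 specifier genes, twist1a and twist1b have the fewest reads and the widest intervals.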

Other observations

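Among 7 notochord genes, the collagen gene col9a1a rose from 11 and 10 to 45 and 54 (log2 fold change 2.13 ± 0.39 (SE), adjusted p = 0.00431) and kept its call whichever library was left out, at 2.00 to 2.26. The other notochord genes did not pass: tbxta stood at 856 and 715 against 1026 and 909 (adjusted p = 0.152), noto at 147 and 104 against 123 and 84 (adjusted p = 0.499) and col2a1a at 1764 and 1939 against 2308 and 1686 (adjusted p = 0.712). Named after its values were seen, polr2f, which lies 9944 bases from sox10 on the other strand and encodes an RNA polymerase subunit, had 105 and 148 without Cre and 163 and 304 with it (adjusted p = 0.0665), the reverse of the order for sox10. It passed under library-size scaling (adjusted p = 0.0429) and with the replicate block (adjusted p = 0.00747). Without Cre-injected replicate 1 its log2 fold change was 1.28, against 0.83 with all 4 libraries, in a fit whose spread comes from the uninjected pair alone.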
